A study of Drosophila virilis and Drosophila yakuba with 2 samples.

Results

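The genes described here are 5 members of the Toll and NF-kappaB immune pathways of flies: Tl, tub, nec, Dif and Rel. They were taken by symbol from the expression tables of Drosophila virilis and Drosophila yakuba heads. In virilis 2 of the 5 symbols were found, Tl and tub, among 14491 gene models. In yakuba all 5 were found among 16077 gene models. Both groups were whole heads of wild-type, mated females aged 2 to 5 days, each from 1 stock centre strain and each sequenced as 1 total RNA library, and no agent or infection is named for either. The number of flies behind each library is not given in the sources used here. Levels are in FPKM, fragments per kilobase of gene model scaled to the fragment total of the library.

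In D. melanogaster, Toll signalling starts outside the cell, where recognition proteins and a chain of serine proteases lead to cleavage of the ligand Spätzle, the product of spz. Spätzle binds the receptor Toll, and the adaptor Tube and the kinase Pelle then bring about loss of the inhibitor Cactus, which frees the NF-kappaB factors Dorsal and Dif. The Imd pathway runs in parallel and ends in cleavage of the remaining NF-kappaB factor, Relish, the product of Rel. The serpin Necrotic, the product of nec, restrains the protease chain. In adults these pathways switch on antimicrobial peptide genes, mainly in the fat body, while in the embryo Toll and Dorsal set the dorsal-ventral axis. Roles given below are those known in D. melanogaster unless another source is named.

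With 1 library per species, no value has a replicate error and no difference was tested, and species, annotation and library cannot be told apart. Of the low values searched, 37.7% in virilis and 38.4% in yakuba fell on steps of whole fragments at the best totals, which were about 70750000 fragments in virilis (near-best fits 70000000 to 72750000) and about 62750000 in yakuba (61250000 to 64750000). Intervals below are 95% Poisson intervals at these totals for 1 kb of effective length, and they cover counting error only. The lower limit set by 3 fragments over 1 kb came to 0.0424 FPKM for virilis and 0.0478 FPKM for yakuba. A symbol was carried by 279 virilis and 497 yakuba models, so most of the pathway was not analysed here, and a level in a whole head cannot tell fewer cells of a type from less RNA per cell. Head markers were present in both: found photoreceptor genes ran from 62.9 to 8636 FPKM in virilis (5 of 20, led by ninaE and Rh3) and from 61.1 to 2177 FPKM in yakuba (4 of 20, led by Arr1 and Pdh), and found neuronal genes from 12.8 to 57.2 FPKM in virilis (4 of 19, led by Ddc and para) and from 11.4 to 24.5 FPKM in yakuba (fne and Dscam, 2 of 19). Muscle genes ran from 217 to 1685 FPKM in virilis (5 of 20, led by Mlc1 and Mhc) and from 3.62 to 1053 FPKM in yakuba (10 of 20, led by Mlc2 and Mlc1), and 0 of 11 glial symbols were found. Of the tissues known for Toll signalling, fat body was represented by 4 of 20 markers in each table, led by Yp1 (215 FPKM) and Obp99b (73.0 FPKM) in virilis and by Adh (4341 FPKM) and SREBP (51.4 FPKM) in yakuba. Of the 16 symbols listed for hemocytes, 0 were found in virilis and 3 in yakuba, Fer1HCH (405 FPKM), crq (53.4 FPKM) and Sr-CI (5.39 FPKM). Fer1HCH is a ferritin gene and need not mark hemocytes, so its level is not read as a sign of these cells. The lowest fat body marker, Amyrel, was at 0.193 FPKM in virilis heads and 0.667 FPKM in yakuba heads. How far these cell types contribute to the levels of the pathway genes was not tested.

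In the virilis heads the receptor gene was expressed well above the typical gene and the adaptor gene near it. Tl (FBgn0013098, scaffold_13047, 11986889 to 11991199) had 29.9 FPKM, with an interval of 28.6 to 31.2 FPKM. This was rank 2350 of all virilis models, with 83.8% of them lower, and 4.78 times the median model of 6.26 FPKM. The adaptor gene tub (FBgn0013148, scaffold_13047, 11824005 to 11825621) had 7.39 FPKM (6.77 to 8.05 FPKM), rank 6757, with 53.4% of models lower. It lay 1.18 times above the median model. Tl was therefore 4.05 times as high as tub per kilobase (counting interval 3.68 to 4.45). Among the 279 virilis models with a symbol (median 8.61 FPKM), Tl ranked 75 and tub 150, so tub lay below the median of the named genes. The virilis levels of nec, Dif and Rel were not analysed here, since no model in that table carried these symbols.

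In the yakuba heads the 5 genes were ordered nec, Tl, Rel, Dif and tub, and all were above the median model of 4.20 FPKM. The serpin gene nec (FBgn0067427, 2L, 15752504 to 15754044) had 95.5 FPKM (93.1 to 98.0 FPKM), rank 664, with 95.9% of models lower. Tl (FBgn0067433, 3R, 23825412 to 23828814) had 44.5 FPKM (42.8 to 46.1 FPKM), rank 1327. Rel (FBgn0029191, 3R, 8916605 to 8919801) had 42.3 FPKM (40.7 to 43.9 FPKM), rank 1391. At 1 kb of effective length the intervals of Tl and Rel, neighbours in the order, overlapped. Their models span 3403 and 3197 bp, and a longer effective length would narrow the intervals. Whether counting error separates them was therefore not settled. The other neighbours had intervals that did not overlap, although the spread between libraries is unknown. Dif (FBgn0067450, 2R, 3682562 to 3689003) had 30.1 FPKM (28.8 to 31.5 FPKM), rank 2020. The adaptor gene tub (FBgn0067423, 3R, 564495 to 565945) had 10.5 FPKM (9.68 to 11.3 FPKM), rank 5244. The shares of models below Tl, Rel, Dif and tub were 91.7%, 91.3%, 87.4% and 67.4%.

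Among the 497 yakuba models with a symbol (median 23.7 FPKM), the order of the genes was the same by construction but their place was lower. The genes nec, Tl, Rel and Dif ranked 139, 191, 195 and 223 there, above the median, while tub ranked 330, below it. In both species, then, tub stood above the median of all models and below the median of models with a symbol. On its own chromosome arm or scaffold each gene held nearly the same place as in its library. The share of models below was 83.9% for Tl and 49.7% for tub among the 1967 models of virilis scaffold_13047. In yakuba it was 92.0%, 91.7% and 65.9% for Tl, Rel and tub among the 3674 models of 3R, 95.4% for nec on 2L and 85.5% for Dif on 2R.

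**Figure D1:**
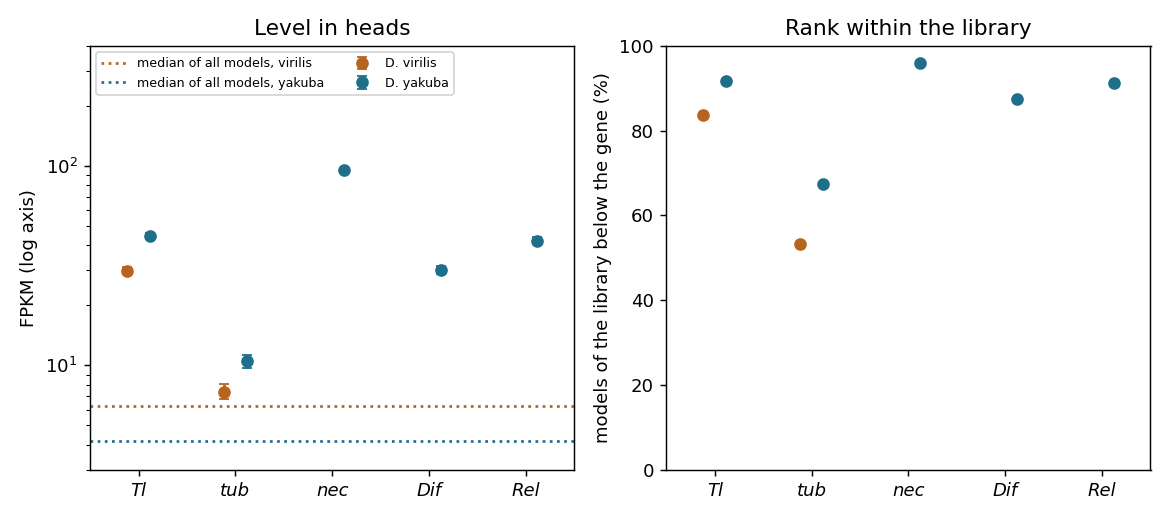
Left, FPKM on a log axis of the 5 genes in the D. virilis head (brown) and the D. yakuba head (blue), 1 library each, with bars for 95% Poisson counting intervals at 1 kb of effective length and dotted lines at the median of all models. Right, the percent of models of the same library below each gene. The gene nec is highest at 95.5 FPKM in yakuba, Tl lies at 29.9 FPKM in virilis and at 44.5 in yakuba, tub at 7.39 in virilis and 10.5 in yakuba, and nec, Dif and Rel have no virilis point.

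The other genes of the pathway could be described in yakuba, where 22 of 85 symbols of the Toll and Imd lists were found. Of these 22, 19 were above the median model and 13 reached 10 FPKM, a level reached by 33.5% of all yakuba models. The 22 could be found only because they carry a symbol. Of the 497 models with a symbol, at least 330 reached 10 FPKM, since tub ranked 330 among them at 10.5 FPKM. The 13 of 22 were thus not a larger share than among models with a symbol. The median of the 22 was 12.3 FPKM, against 4.20 FPKM for all models and 23.7 FPKM for models with a symbol. In virilis 3 of the 85 were found, Tl, tub and NT1, with 1 at 10 FPKM or more, against 39.8% of all virilis models.

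Outside the cell, nec was the highest of the genes of this step that were found. The list of extracellular Toll components had 6 of 31 symbols in yakuba, with a median of 10.7 FPKM, 5 of them above the median model. Of the 6, 2 were above the median of models with a symbol (23.7 FPKM). The ligand gene spz had 8.86 FPKM, and nec was 10.8 times as high (counting interval 9.88 to 11.8). PGRP-SA, PGRP-SD and GNBP1 encode proteins that act ahead of Toll in the recognition of Gram-positive bacteria. They had 26.0, 7.92 and 12.6 FPKM. NT1, a relative of spz that encodes a neurotrophin-like ligand, had 0.151 FPKM in virilis heads and 0.0199 FPKM in yakuba heads. The virilis value was above the limit set by 3 fragments over 1 kb and the yakuba value below it. The serpin list had 2 of 40 symbols in yakuba, nec and Spn2, and Spn2 had 0.495 FPKM.

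Among the receptors, Tl was the highest of the 3 Toll family genes found in yakuba, out of 8 listed. The other two, 18w and Tehao, had 20.0 and 3.21 FPKM, so that Tl was 2.23 and 13.8 times as high. Tl was also 5.02 times as high as its ligand gene spz (4.58 to 5.50). These are ratios of transcript levels per kilobase within 1 library.

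Inside the cell, the genes of the adaptor and the kinase were well below the gene of the inhibitor. The adaptor gene tub had 10.5 FPKM and pll, which encodes the kinase Pelle, 4.90 FPKM, a ratio of 2.13 (1.86 to 2.44). The inhibitor gene cact had 83.5 FPKM, more than any other gene of the intracellular Toll list. That list had 8 of 18 symbols found, with a median of 21.2 FPKM. All 8 were above the median model, and 4 were above the median of models with a symbol (23.7 FPKM). The extracellular genes spz and PGRP-SA were among the 8 and were counted in both lists.

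The 3 NF-kappaB genes were ordered Rel, Dif and dl. The gene dl encodes Dorsal, and it had 16.5 FPKM. Dif was 1.83 times as high as dl (1.70 to 1.98), and Rel was 1.40 times as high as Dif (1.32 to 1.49). Dif and dl together came to 46.6 FPKM, and cact was 1.79 times that sum. The counting intervals of these 3 genes did not overlap.

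In the Imd pathway, Rel was higher than every other gene found except Uev1A. The list had 8 of 31 symbols found in yakuba, with a median of 10.5 FPKM. Of these 8, 7 were above the median model and 2 above the median of models with a symbol (23.7 FPKM). The highest was Uev1A, which encodes a ubiquitin-conjugating enzyme variant, at 93.9 FPKM, followed by Rel at 42.3 FPKM and key at 23.2 FPKM. The adaptor gene imd had 8.84 FPKM, and Rel was 4.78 times as high (4.37 to 5.24). The subunits of the Relish kinase were unequal, with key, the regulatory subunit, 7.19 times as high as ird5, the catalytic one, which had 3.23 FPKM and was the lowest of the list. The kinase gene Tak1, the caspase gene Dredd and the recognition gene PGRP-LA had 12.1, 5.33 and 6.38 FPKM. Iap2, an older name of the ubiquitin ligase gene that the list holds as Diap2, had 21.6 FPKM and was not counted.

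**Figure D2:**
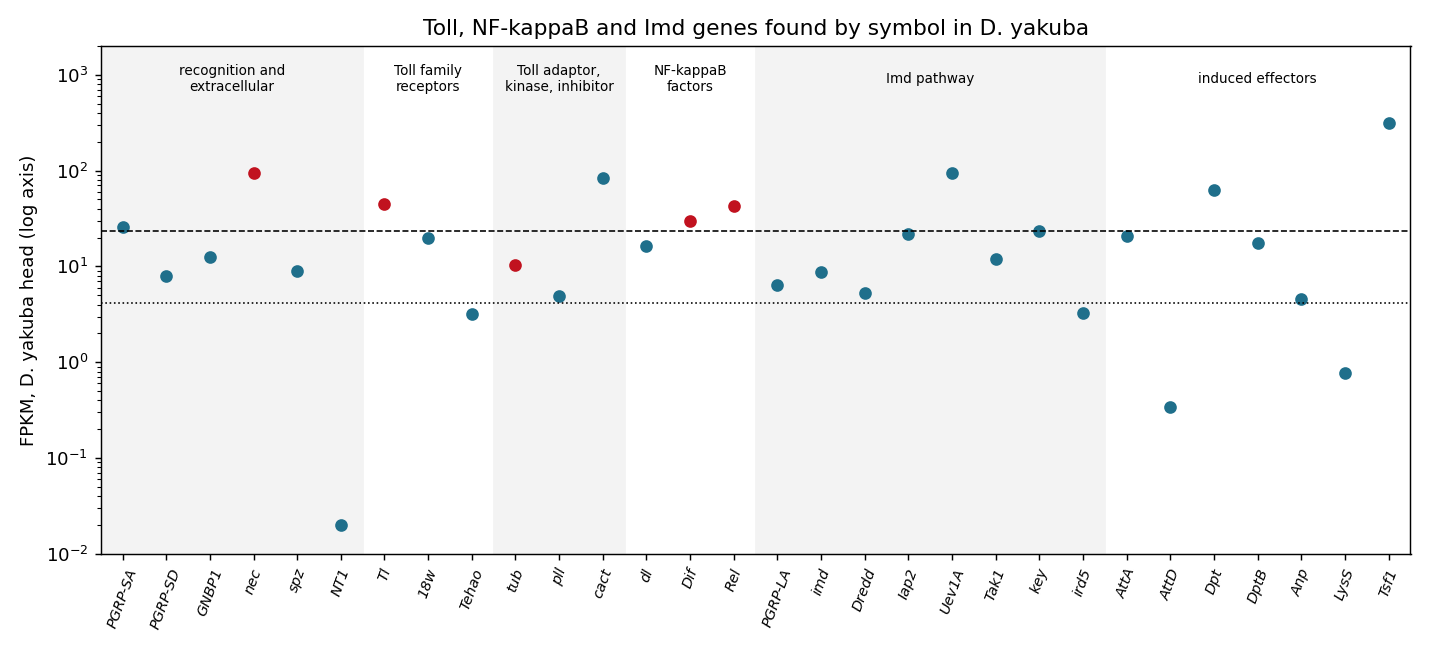
FPKM on a log axis in the D. yakuba head, 1 library, for the Toll, NF-kappaB, Imd and effector genes found by symbol, grouped by role, with Tl, tub, nec, Dif and Rel in red. The dotted line is the median of all models (4.20 FPKM) and the dashed line the median of models with a symbol (23.7 FPKM). Of the red points, only tub lies between the lines, and nec, Uev1A and cact are the highest of the Toll and Imd genes shown.

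Genes of antimicrobial peptides and effectors were spread widely in the yakuba heads. Whether each gene of this list is a target of the Toll or Imd pathway was not tested. Of the antimicrobial peptide and effector list, 7 of 45 symbols were found in yakuba, with a median of 17.5 FPKM and 5 above the median model. Against the median of models with a symbol (23.7 FPKM), 2 of the 7 were higher. The transferrin gene Tsf1 had 312 FPKM, and the peptide genes Dpt and AttA had 62.3 and 20.9 FPKM, while AttD was the lowest at 0.341 FPKM. In virilis no symbol of the list was found as spelled. The cecropin genes Cec1, Cec2A, Cec2B and Cec3, which have virilis names of their own, had 0.613, 0.818, 0.409 and 1.43 FPKM. They are short copies of one family, with spans of 253 to 254 bp. Their values stood in ratios of small whole numbers, as counts of few whole fragments would give. The lower limit of 0.0424 FPKM is for 1 kb of effective length and is higher on models this short, so these values may lie near it. Whether reads were also split between the copies was not tested, and the single values are uncertain.

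The embryonic targets of Dorsal had 6 of 15 symbols in virilis, with a median of 3.13 FPKM, and 3 in yakuba, with a median of 6.20 FPKM. Only sog, dpp and twi were found in both species, so the 2 medians are over unlike sets of genes and are not compared. The antagonist gene sog was the highest in both, at 13.7 FPKM in virilis and 22.5 FPKM in yakuba. The ligand gene dpp, which Dorsal represses in the embryo, was at 5.34 FPKM in virilis heads and 6.20 FPKM in yakuba heads. The mesoderm gene twi was at 0.130 FPKM in virilis heads and 0.280 FPKM in yakuba heads, from models whose spans differed 2.11 times. In virilis rho and sim had 5.84 and 0.920 FPKM, and zen was listed at 0.

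Tl and tub were the members that could be compared between the species. Both were lower in virilis than in yakuba, and neither by much. For Tl the level was 29.9 FPKM in the virilis head and 44.5 FPKM in the yakuba head, a virilis over yakuba ratio of 0.672. For tub it was 7.39 FPKM in the virilis head and 10.5 FPKM in the yakuba head, a ratio of 0.706. Over the 52 genes with the same symbol and at least 1 FPKM in both libraries, the median of log2((virilis + 1)/(yakuba + 1)) was -0.20, so part of each ratio is shared with the named genes in general. Relative to that median, the log2 ratio was -0.36 for Tl (counting interval -0.44 to -0.28) and -0.25 for tub (-0.42 to -0.087). A pair was called where its ratio was at least 4-fold away from that median and the higher library reached 10 FPKM. Of the 41 pairs at that level, 2.44% were called as higher in virilis and 7.32% as higher in yakuba, and 0 of the 2 members were called in either direction. Of the 41 pairs, 33 lay within 2-fold of the median ratio, Tl and tub among them, and 24 lay farther from it than Tl and 30 farther than tub. Both members thus lay nearer to the median ratio than most of the 41 pairs. The gene tub entered the 41 only through its higher library, yakuba, at 10.5 FPKM, just above the limit of 10 FPKM.

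The proportion of receptor to adaptor transcript was close in both heads. Tl was 4.05 times as high as tub in virilis (3.68 to 4.45) and 4.25 times as high in yakuba (3.90 to 4.63). Taken on FPKM + 1, the log2 ratio of Tl was lower than that of tub by a difference of -0.11. Its counting interval, -0.29 to 0.08, includes 0. The folds above had no added 1 FPKM, nor did the width of that interval, so the difference is not their exact log2 ratio. In order of level among the 77 genes with the same symbol, Tl was at place 22 in virilis and 23 in yakuba, and tub at 43 in virilis and 40 in yakuba. The share of models below depended on which models were ranked. Among all models it was lower in virilis, at 83.8% in virilis and 91.7% in yakuba for Tl and at 53.4% in virilis and 67.4% in yakuba for tub. Among models with a symbol the direction was the opposite, at 73.1% in virilis and 61.6% in yakuba for Tl and at 46.2% in virilis and 33.6% in yakuba for tub. Models with a symbol numbered 279 in virilis and 497 in yakuba, with 77 symbols in common, so these shares are against largely different genes. The median of all models was 6.26 FPKM in virilis but 4.20 in yakuba, while that of models with a symbol was 8.61 FPKM in virilis but 23.7 in yakuba, and their part in these shares was not tested. The gene models were of similar extent, with spans of 4311 bp in virilis and 3403 bp in yakuba for Tl, and 1617 bp in virilis and 1451 bp in yakuba for tub. The part of model length in the ratios was not tested. Of the other pathway genes in both tables, sog had a centred log2 ratio of -0.48 and dpp of 0.02, and NT1 and twi were under 1 FPKM in both libraries.

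**Figure D3:**
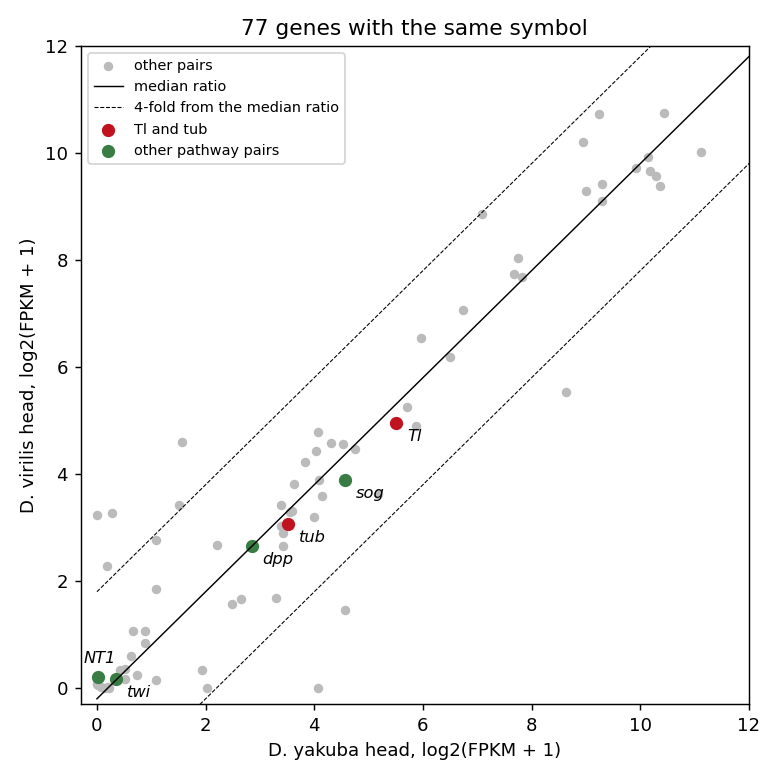
Log2(FPKM + 1) in the D. virilis head against the D. yakuba head for the 77 genes with the same symbol, 1 library per species, with the median ratio as a solid line and 4-fold from it as dashed lines. Tl and tub (red) lie just below the solid line, at centred log2 ratios of -0.36 and -0.25, as does sog at -0.48, and NT1 and twi lie near the origin.

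The named genes closest to Tl and tub in both levels were found by their distance on log2(FPKM + 1) over the 2 libraries, among 77 pairs. For Tl these were SREBP, cbt, Updo, Su(var)205 and per, at distances of 0.37, 0.37, 0.89, 1.05 and 1.25. SREBP was at 37.1 FPKM in the virilis head and 51.4 FPKM in the yakuba head, and cbt at 28.9 FPKM in the virilis head and 57.7 FPKM in the yakuba head. For tub they were z, su(s), Gld, oxt and Atg5, at distances of 0.14, 0.20, 0.23, 0.25 and 0.37. The gene z was at 7.13 FPKM in the virilis head and 9.44 FPKM in the yakuba head. With 2 libraries such likeness describes levels only. Next to the members in the order of yakuba levels, within 2 places, the models with a symbol were Int6 (95.9 FPKM) above nec and maf-S (42.3 FPKM) above Rel.

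The distance between Tl and tub in the genome differed greatly between the species. Tl and tub lay on the same scaffold in virilis, 161 kb apart with 7 models between them, and on the same arm in yakuba, 23.3 Mb apart with 2936 models between them. On yakuba 3R, spz and pll were closer to Tl, at 227 and 409 kb. No annotated model overlapped the span of any of the 5 genes in either table. Among the nearest neighbours of the members, the farthest was that of Tl in virilis on one side, where the next model (GJ24264, listed at 0) was 129 kb away. On its other side GJ22959, with a span of 20.5 kb, had 21.6 FPKM at a distance of 7.70 kb, followed by GJ24266, of 996 bp, at 3.22 FPKM. In yakuba, GE10613, with a span of 19.9 kb, had 21.1 FPKM at 2.01 kb from Tl, followed by GE23694, of 996 bp, at 2.39 FPKM. On the far side of yakuba Tl lay GE10614 (4.40 FPKM), of 288 bp, at 5.15 kb, and the model after it (GE23692, 0.0401 FPKM) was 103 kb from Tl. Tl thus bordered a stretch with few annotated models in both species, and on its other side 2 models of like span and level followed in the same order. Whether these models are the same genes in both species was not tested.

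The adaptor gene tub lay in a denser stretch in both species, with 17 models within 50 kb in each, and 10 of those 17 were higher than tub in each. In the whole library the share of models lower than tub was 53.4% in virilis but 67.4% in yakuba, so the same count stands against unlike shares. In virilis its nearest neighbours were GJ22965 (13.0 FPKM) and GJ22962 (20.1 FPKM), at 0.727 and 0.805 kb. In yakuba they were GE25412 (35.5 FPKM) and GE25357 (0.0853 FPKM), at 1.45 and 4.14 kb. The counts for the other members can be read against the shares of their whole library that were lower, which were 83.8% for Tl in virilis, and 91.7%, 95.9%, 91.3% and 87.4% for Tl, nec, Rel and Dif in yakuba. Within 50 kb, 1 of 9 models was higher than Tl in virilis (GJ22957, 641 FPKM) and 1 of 11 in yakuba (BM-40-SPARC, a gene of the extracellular matrix, 157 FPKM). In yakuba 1 of 14 models was higher than nec, 1 of 20 higher than Rel (GE24806, 43.6 FPKM) and 2 of 12 higher than Dif (GE13133 and GE12790, 33.6 and 38.0 FPKM). With so few models around each gene, nothing particular to these surroundings is read from the counts.

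**Figure D4:**
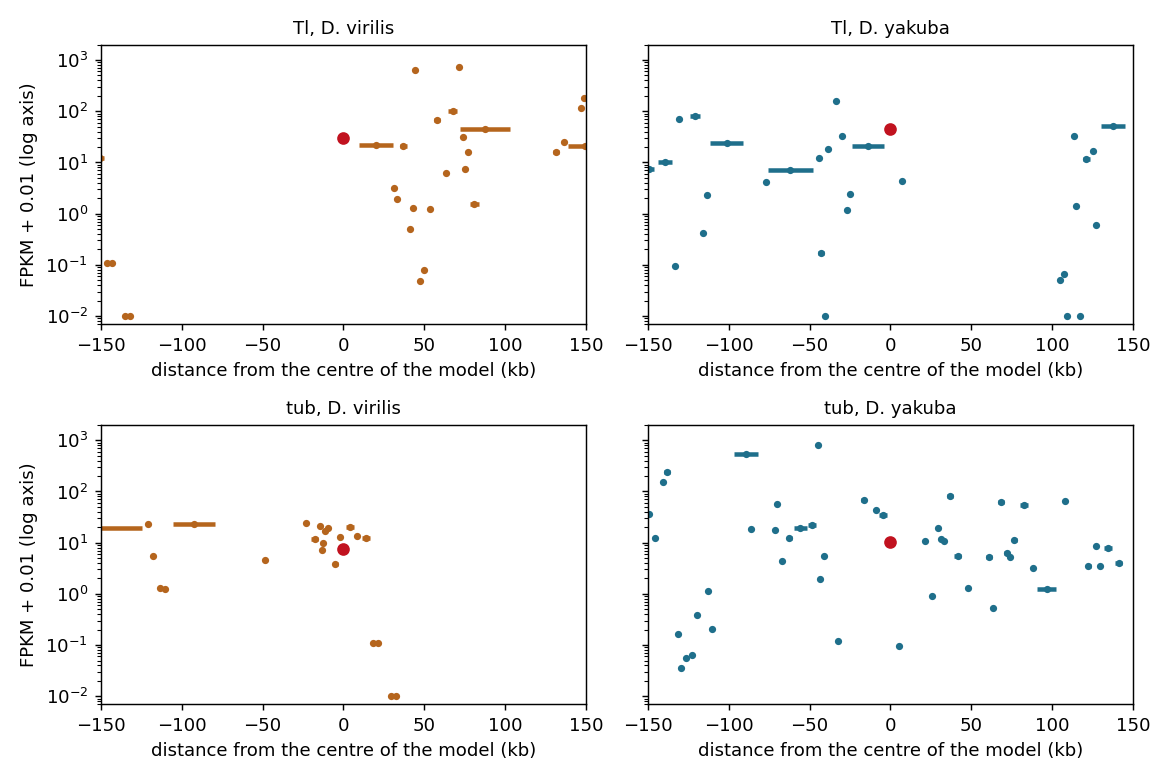
FPKM + 0.01 on a log axis of the annotated models within 150 kb of the centre of Tl (top) and tub (bottom) in D. virilis (left) and D. yakuba (right), each model drawn as a bar over its span with a dot at its middle and Tl or tub in red. Tl borders a stretch with few models in both species, 129 kb without one in virilis, while tub has 17 models within 50 kb in each.

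The 14 models within 50 kb of the serpin gene nec in yakuba had a median of 0.769 FPKM, against 4.20 FPKM for all models. Its neighbours were GE24180 (5.45 FPKM) at 1.20 kb and GE19111 (0.0840 FPKM) at 14.8 kb, and the model higher than nec was GE24191 (117 FPKM), 2.87 kb away. Rel had GE24801 (1.20 FPKM) and GE25926 (8.99 FPKM) at 0.625 and 3.47 kb. Dif had GE12792 (0.0591 FPKM) at 14.0 kb and GE12791 (8.39 FPKM) at 0.359 kb. Dif and dl, the pair of NF-kappaB genes under Toll, were 17.0 kb apart on 2R, and the 2 models between them, GE12792 and GE13137, had 0.0591 and 0.645 FPKM. The spans come from models that may leave out untranslated ends, and whether counting used strand is not given in the sources used here, so reads near close neighbours could have been assigned to either.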

How the data were processed

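Stranded libraries were made from 1 µg of total RNA from heads, per the labels' protocols. For each library the authors deposited FPKM values by gene model, with its identifier, name and locus, per the file headers. TopHat and Cufflinks are named in the submitters' processing notes. Of versions, builds, annotation and the use of strand nothing is given in the sources used here.

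The members, gene lists and rules were chosen with earlier results of these data known. Genes were matched by the deposited symbol without species prefix and transcript suffix, so other spellings were missed. The supplied RefSeq gene table, of another D. virilis assembly, matched 0 identifiers and was not used. No sequences were used. Starts are given counted from 1; under 900 bp, 66.8% of virilis and 67.6% of yakuba spans were then multiples of 3.

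Ranks are among all models, those at 0 included. Species ratios are log2((virilis FPKM + 1)/(yakuba FPKM + 1)), minus the median over pairs that reached 1 FPKM in each library. Fragment totals were searched over models of 900 to 4000 bp, divisible by 3, below 0.12 FPKM. At the chosen totals 37.7% of 361 virilis and 38.4% of 398 yakuba values lay within 0.04 of a whole fragment number up to 6.5, at fragment lengths of 160 and 170 bp, against medians of 3.88% and 4.27% over the search. Models with introns cannot give whole numbers from their spans, so no count test was possible. The search and the ratio were tested on simulated data. Named were the members, found pathway genes (at least the 3 highest and the lowest of lists with over 6 found), the 5 pairs nearest to Tl and to tub, genome and rank neighbours, and the 2 highest of each marker list. Python 3.11.15, NumPy 2.4.6, pandas 2.3.3, SciPy 1.17.1 and Matplotlib 3.10.9 were used.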

Additional observations from a re-analysis of the deposited data

How the results depend on the processing

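Counting error sets the precision of single values; the spread between libraries is unknown, and most listed pathway symbols were not matched as spelled. The alternatives for the ratios reuse the same 2 libraries and are given without counting intervals, so a shared sign under them adds no independent support. The log2 ratios of Tl and tub were below 0 under all 8 alternatives, and neither gene was past 4-fold in any. Without centring they were -0.56 and -0.45, centred on ribosomal protein pairs -0.19 and -0.086, and with FPKM rescaled to a sum of 1000000 and not centred -0.76 and -0.67; these settings moved the median of all pairs by -0.20, 0.17 and -0.40. With a pseudocount of 5 FPKM 1 pair in place of 3 was past 4-fold and higher in yakuba, and centred on ribosomal protein pairs 2 in place of 1 were higher in virilis.

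Among models at 1 FPKM or more, the share below was 77.2% for Tl and 34.4% for tub in virilis, and 87.4%, 50.3%, 93.7%, 80.9% and 86.8% for Tl, tub, nec, Dif and Rel in yakuba. Among models with a symbol it was 73.1% and 46.2% in virilis, and 61.6%, 33.6%, 72.0%, 55.1% and 60.8% in yakuba, in the same order. Among models of 0.5 to 2 times the member's span it was 82.5% for Tl and 57.1% for tub in virilis, and 70.5% for tub, 96.4% for nec and 83.9% for Dif in yakuba. Among spans of 300 bp or more it was 66.6% for tub in yakuba. Rescaled to a sum of 1000000, levels were 61.9 for Tl and 15.3 for tub in virilis, and 105.7, 24.9, 226.9, 71.6 and 100.5 for Tl, tub, nec, Dif and Rel in yakuba.

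Over members at 1 FPKM or more, list medians in yakuba were 12.6 FPKM for extracellular Toll genes, 20.9 FPKM for effectors and 14.4 FPKM for Dorsal targets, and 5.84 FPKM for Dorsal targets in virilis. With Iap2 counted, an alternative chosen after seeing the data, the Imd median was 12.1 FPKM.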

Other observations

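Some other genes with a symbol in yakuba, outside the lists, were chosen after their values were seen, so nothing is read from their range. The autophagy adaptor gene ref(2)P had 171 FPKM, the growth factor genes Idgf3 and Idgf1 had 84.9 and 42.0 FPKM, and the thioester protein gene TepII had 46.4 FPKM against 2.18 FPKM for its relative TepI. The gene kappaB-Ras, named for a regulator of NF-kappaB inhibitors in mammals, had 9.29 FPKM, near tub. Traf1 and Traf3, of the family of receptor-associated factors, had 4.96 and 0.219 FPKM.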
